A study of Mus musculus with 16 samples.

Results

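Before a cell copies its DNA, each replication origin is licensed once by loading the ring-shaped helicase built from Mcm2, Mcm3, Mcm4, Mcm5, Mcm6 and Mcm7. The origin recognition complex marks the site, Cdc6 and Cdt1 bring the ring, and geminin, the product of Gmnn, holds Cdt1 so that no origin is licensed again after S phase has begun. Mcm10 acts later, when the loaded ring is turned into a moving helicase. Cells that leave the cycle, as sympathetic neurons do, are known to lose most of these proteins. The 10 genes named here were taken by symbol from tables of 24411 mouse genes, and each was read in all 16 RNA-Seq libraries. All 10 passed the filter on low counts, which kept 16665 genes.

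The libraries came from a mouse model of neuroblastoma, in which the Th promoter drives human MYCN in cells of the neural crest. There were 12 libraries of celiac ganglia, taken at 2 weeks of age, in 4 groups: 4 lacked the transgene and had wild-type Runx1t1, 3 lacked the transgene and were labelled Runx1t1 het, 3 were from Th-MYCN homozygotes with wild-type Runx1t1 and 2 from Th-MYCN homozygotes labelled Runx1t1 het. The remaining 4 libraries were tumors of Th-MYCN homozygotes with wild-type Runx1t1, whose age the labels do not give. The labels do not name the het allele of Runx1t1, the gene of a transcriptional co-repressor. The study writes these ganglia as Runx1t1+/-, the notation it keeps for a line in which an insertion inactivates the gene. Nothing in the labels says that the replicates are separate animals, so p-values measure the spread between these samples.

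Runx1t1 RNA did not separate the het from the wild-type ganglia, so the groups are called by their labels. In the transgene-free ganglia its level ran from 2.78 to 4.41 TPM, a level scaled by transcript length and by the library's total, with wild-type Runx1t1 and from 4.36 to 6.28 with the het label. In MYCN ganglia it ran from 7.90 to 70.3 TPM and from 8.83 to 16.9 TPM, and in tumors from 29.5 to 55.8 TPM. No row of the tables stands for the transgene itself, since they hold mouse genes. Total counts ran from 10692299 to 38618757 per library, and 6 ganglion libraries, among them both MYCN ganglia labelled het, held under 20000000 while all 4 tumors held more. Sympathetic neuron markers were present in every library, their summed TPM running from 6393 to 18360 in ganglia and from 2509 to 3576 in tumors, and the 6 markers of satellite glia and Schwann cells summed to between 457.5 and 1839 in ganglia and between 12.2 and 20.0 in tumors. Fibroblast markers summed to between 537.3 and 4369 TPM in ganglia and between 99.5 and 299.3 TPM in tumors. Myeloid markers summed to between 93.2 and 251.2 TPM in tumors. In ganglia other than transgene-free wild-type replicate 2 the myeloid sum ran from 20.8 to 107.2 TPM. Tumor replicate 3 stood apart by hepatocyte markers, 5300 summed TPM.

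The library of transgene-free wild-type replicate 2 stood apart in the genes described here. It held 662.1 summed TPM of the 7 lymphocyte and thymocyte markers, against 2.98 to 9.62 in the other ganglia and 5.66 to 24.9 in tumors. Ptprc, the leukocyte surface marker, stood at 230.5 TPM there, Cd79a of B cells at 218.4 TPM and Cd4 of T cells at 101.4 TPM. Its level of all 10 licensing genes was the highest of the 7 transgene-free ganglia. For Mcm3 it was 12.5 times the median of the other 6, for Cdt1 8.16 times and for Mcm7 3.50 times, but for Gmnn only 1.46 times. Of the other marker lists, it was also the highest ganglion for myeloid markers, 344.6 summed TPM against at most 107.2, and for endothelial markers, 426.0 against at most 236.9, and the lowest for sympathetic neuron markers, 6393 against at least 6839, for chromaffin markers, 314.1 against at least 711.8, and for adrenal cortex markers, 6.13 against at least 7.64. The part of these cells in its levels was not tested. Fits below include this library unless they are said to leave it out.

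The promoters of the licensing genes are known to carry sites for E2F, the factor family that the retinoblastoma protein holds back until a cell commits to S phase. RefSeq promoter windows (build GRCm38.p6, 250 bases before to 50 after the start) were found for 8 of the 10 genes in 9 entries, since Mcm7 has 2. Neither Mcm4 nor Gmnn had an entry. The letters TTTCCCGC, TTTGGCGC, TTTCGCGC or TTTGCCGC, read on both strands, occurred in the windows of 6 genes (Mcm3, Mcm5, Mcm6, Mcm7, Cdt1 and Cdc6) and in 2.26% of all 32851 windows. The stretches below are printed in the gene's own direction because they hold those letters, in capitals. The first run of capitals in the Mcm6 and Mcm5 stretches is a pair of matches on opposite strands that share bases.
Mcm6, chr1:128359731-128359840, minus strand: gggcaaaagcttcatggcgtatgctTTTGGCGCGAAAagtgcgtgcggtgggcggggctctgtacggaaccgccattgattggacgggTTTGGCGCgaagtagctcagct
Mcm5, chr8:75109331-75109420, plus strand: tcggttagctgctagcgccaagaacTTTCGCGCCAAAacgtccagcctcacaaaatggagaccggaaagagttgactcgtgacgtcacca
Mcm7, chr5:138172029-138172058, minus strand: atttcgaaccGCGGGAAAcagggtgtccaa
Cdc6, chr11:98908003-98908032, plus strand: ccggtggagaGCGGGAAAtcgcctggggtc
Mcm3, chr1:20820279-20820303, minus strand: aacttccgtgGCGGGAAAacttggg
Cdt1, chr8:122568037-122568064, plus strand: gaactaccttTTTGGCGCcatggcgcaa

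In Mcm6 the matches began 110, 106 and 47 bases before the start, in Mcm5 153 and 149 bases before it, in Mcm7 165 before it and in Cdc6 138 before it. Those of Mcm3, at positions 20 and 39, and of Cdt1, at position 33, lay after the start, as did the other match of Mcm7 at position 17. Neither Mcm2 nor Mcm10 held these letters. The E-box CACGTG, the letters that MYC family proteins are known to bind, occurred in none of the 9 windows and in 7.15% of all windows. The letters CCAAT on either strand occurred in 6 of the 8 genes, all but Cdt1 and Cdc6, and in 37.4% of all windows. These are matches of letters in a window of fixed length, and no binding was measured.

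The 10 genes lie on 8 chromosomes. In GENCODE vM21 (GRCm38) all are protein-coding: Mcm2 at chr6:88883474-88898780, Mcm3 at chr1:20802968-20820312, Mcm4 at chr16:15623897-15637400, Mcm5 at chr8:75109569-75128439, Mcm6 at chr1:128331590-128359664, Mcm7 at chr5:138164583-138172422, Mcm10 at chr2:4989714-5012791, Cdt1 at chr8:122568015-122573554, Cdc6 at chr11:98907801-98923940 and Gmnn at chr13:24751845-24761923. Mcm3 and Mcm6 share a chromosome, as do Mcm5 and Cdt1, but neither pair is adjacent. The E2F letters found before the RefSeq starts of Cdc6 and Mcm7 lie inside these gene positions. RefSeq and GENCODE thus place those starts differently.

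In the transgene-free ganglia the helicase subunits were present at a low level. Leaving out replicate 2 of the wild-type ganglia, Mcm7 was at 13.4 ± 2.75 TPM (SD, n = 6), Mcm2 at 9.27 ± 1.23 TPM, Mcm4 at 8.57 ± 1.61 TPM, Mcm3 at 5.34 ± 1.92 TPM and Mcm5 at 3.90 ± 0.967 TPM. Mcm6, at 15.5 ± 11.3 TPM, had the widest spread of the 6 subunits in these libraries. Gmnn, at 11 ± 2.1 TPM, stood well above the loading factor it holds, since Cdt1 was at 2.55 ± 0.458 TPM. Mcm10 was at 0.880 ± 0.303 TPM and Cdc6 at 0.478 ± 0.376 TPM. Cdc6 rested on 2 to 59 counts in these 6 libraries, and on 2 counts in wild-type replicate 4, so its level there is the least certain of the 10.

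All 10 licensing genes were higher in tumors than in transgene-free ganglia. The median of their log2 fold changes was 4.61, against −0.06 over all genes tested, and it ran from 3.16 for Mcm4 to 5.90 for Mcm10. The 10 calls in this comparison stand beside 30.6% of all genes tested that were called higher (edgeR quasi-likelihood test, Benjamini-Hochberg adjusted p under 0.05). In TPM the 4 tumors lay above all 7 transgene-free ganglia for 10 of the 10 genes, replicate 2 included, as they did for 14.5% of all genes tested. The same 10 were called without any 1 of the 16 libraries. Without wild-type replicate 2 the median was 5.17, and the folds ran from 3.53 for Gmnn to 6.52 for Mcm10. Fibroblast markers had a median sum of 2160 TPM in transgene-free ganglia and 116.8 TPM in tumors, and myeloid markers 43.2 and 137.7 TPM. Glial and neuronal sums were lower in tumors, as given above. The part of these cells in the licensing gene levels was not tested. In bulk tissue, more cycling cells and more of each RNA per cell cannot be told apart.

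**Figure D1:**
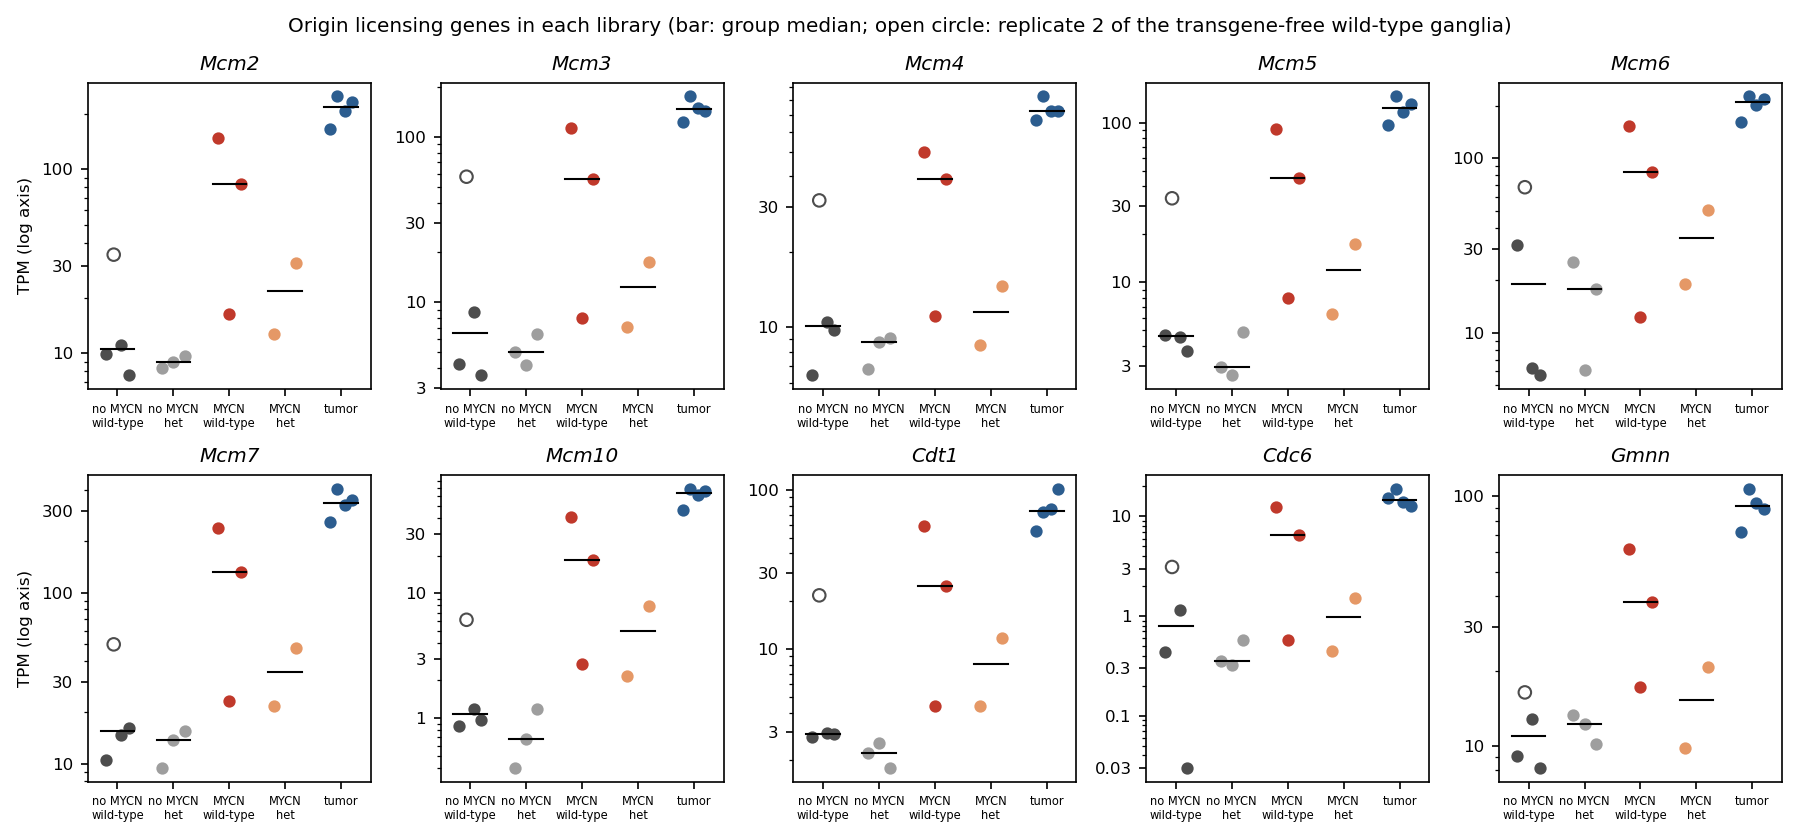
TPM of each origin licensing gene (log axis) in every library, by group: transgene-free ganglia with wild-type Runx1t1 (n = 4) or labelled het (n = 3), MYCN ganglia with wild-type Runx1t1 (n = 3) or labelled het (n = 2) and tumors (n = 4). Points are libraries, bars are group medians, and the open circle is replicate 2 of the transgene-free wild-type ganglia. In each panel the 4 tumors lie above the 7 transgene-free ganglia, while the MYCN ganglia spread widely and overlap the transgene-free range in all 10 genes and the tumor range in Cdt1.

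Mcm2, a subunit of the ring, is given here for every library. Without the transgene it was at 9.92, 34.4, 11.1 and 7.62 TPM in wild-type replicates 1, 2, 3 and 4, and in those labelled het at 8.29, 9.04 and 9.71 TPM. In MYCN ganglia it was at 147, 16.4 and 82.9 TPM with wild-type Runx1t1 and at 12.8 and 31.1 TPM with the het label. In tumors it was at 165, 249, 206 and 231 TPM. All tumors lay above all ganglia, the MYCN ganglia of both labels overlapped, and every MYCN ganglion lay above every transgene-free one except replicate 2. Of the other licensing genes, Cdt1 lacked the first of these traits, and Mcm3, Mcm4, Mcm6, Cdc6 and Gmnn lacked the last. The log2 fold change in tumors against transgene-free ganglia was 4.57 (SE 0.55, edgeR adjusted p = 1.05e-05).

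Mcm7 had the highest level of the 10 in tumors. It was at 10.6, 50.0, 14.8 and 16.3 TPM in the transgene-free wild-type ganglia, at 9.52, 13.8 and 15.5 TPM in those labelled het, at 239, 23.4 and 132 TPM in the MYCN wild-type ganglia and at 21.8 and 47.3 TPM in the MYCN ganglia labelled het. The tumors held 259, 404, 325 and 349 TPM, above every ganglion. Its log2 fold change was 4.70 (SE 0.57, edgeR adjusted p = 1.06e-05). Mcm4 had the lowest tumor level of the ring subunits, at 66.9 to 82.9 TPM against 6.46 to 32.0 TPM in transgene-free ganglia. Its highest level in transgene-free ganglia was 10.5 TPM without replicate 2. Its fold was the smallest of the 10 with all libraries, 3.16 on the log2 scale (SE 0.44, edgeR adjusted p = 3.43e-05), and 3.56 without replicate 2. Mcm3 ran from 122 to 176 TPM in tumors and from 3.61 to 57.4 TPM in transgene-free ganglia, or up to 8.72 TPM without replicate 2, and its log2 fold change was 4.32 with that library and 5.25 without it. Mcm5 ran from 96.3 to 146 TPM against 2.62 to 33.6 TPM, or up to 4.90 TPM without replicate 2, with a log2 fold change of 4.68 and 5.44 respectively. Mcm6 ran from 162 to 226 TPM against 5.71 to 68.2 TPM, or up to 31.7 TPM without it.

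Of the genes outside the ring, Mcm10 had the largest fold. It was at 0.87, 6.13, 1.18 and 0.97 TPM in the transgene-free wild-type ganglia, at 0.40, 0.68 and 1.18 TPM in those labelled het and at 46.4, 68.6, 61.6 and 66.6 TPM in tumors. That is a log2 fold change of 5.90 (SE 0.76, edgeR adjusted p = 1.66e-05). The loading factors followed. Cdt1 rose from 1.80 to 2.97 TPM in 6 of the transgene-free ganglia, with 21.8 TPM in replicate 2, to 55.0 to 102 TPM in tumors, a log2 fold change of 4.64 (SE 0.72, edgeR adjusted p = 7.98e-05), or 5.38 without replicate 2. Cdc6 rose from 0.03 to 3.11 TPM to 12.6 to 18.9 TPM in tumors, and its fold of 4.85 on the log2 scale had the widest error of the 10 (SE 0.87, edgeR adjusted p = 0.000255) and was 5.44 without replicate 2.

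Gmnn, the inhibitor, had the smallest error. It was at 9.14, 16.4, 12.8 and 8.19 TPM in the transgene-free wild-type ganglia, at 13.3, 12.2 and 10.2 TPM in those labelled het, at 61.3, 17.2 and 37.8 TPM in MYCN wild-type ganglia, at 9.85 and 20.8 TPM in those labelled het and at 72.0, 107, 93.8 and 89.2 TPM in tumors. Replicate 2 lay closer to the other transgene-free ganglia here than for any other licensing gene, at 16.4 TPM against a highest value of 13.3 TPM among the rest. The log2 fold change in tumors was 3.40 (SE 0.33, edgeR adjusted p = 2.48e-06). Differences between the folds of 2 members were not tested.

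The ratio of Gmnn to Cdt1 TPM ran from 2.80 to 6.0 in 6 transgene-free ganglia and was 0.750 in replicate 2. In MYCN ganglia it was 1.03, 3.90 and 1.52 with wild-type Runx1t1 and 2.24 and 1.77 with the het label. In tumors it ran from 0.878 to 1.47, and in tumor replicate 4 Cdt1 RNA, at 102 TPM, exceeded Gmnn RNA, at 89.2 TPM. A ratio under 2 was found in 8 libraries, replicate 2 of the transgene-free ganglia among them, and these were the 8 with the highest mean level of the licensing genes. The ratio is a description, with no test, and its denominator is itself one of those genes.

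The 6 ring subunits kept nearly fixed proportions in tumors. Of the summed TPM of Mcm2 to Mcm7, Mcm7 made up 30.5% ± 0.750 (SD, n = 4), Mcm2 19.4% ± 0.556, Mcm6 18.5% ± 0.622, Mcm3 13.6% ± 0.665, Mcm5 11.2% ± 0.275 and Mcm4 6.81% ± 0.606. The sum itself ran from 870.8 to 1284 TPM. MYCN wild-type replicates 1 and 4, with sums of 792.5 and 438.2 TPM, came close to that for Mcm7, at 30.2% in each, and Mcm6, at 19.2% and 19.0%. In the same order Mcm4 made up 6.29% and 8.86%, against 6.34% to 7.68% in tumors. Mcm5 made up 11.4% and 10.3%, against 10.9% to 11.5% in tumors. Where the sum was low the proportions moved: in the 6 transgene-free ganglia other than replicate 2, with sums of 44.5 to 67.6 TPM, Mcm4 made up 9.56% to 20.9% and Mcm5 5.06% to 8.15%.

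Mcm6 was the subunit that moved most. In the transgene-free ganglia it made up 46.9% and 24.7% of the summed TPM in wild-type replicates 1 and 2 and 43.9% in het replicate 1, the 3 libraries under 20000000 counts. In the 4 deeper libraries it made up 11.2%, 12.2%, 13.7% and 28.2%. The counts behind the 2 highest shares were 448 and 361. Among MYCN ganglia the 3 libraries under 20000000 counts had 25.2% and 28.3% with the het label and 19.2% with wild-type Runx1t1, and the 2 deeper ones had 15.5% and 19.0%. The part of depth in the Mcm6 values was not tested.

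**Figure D2:**
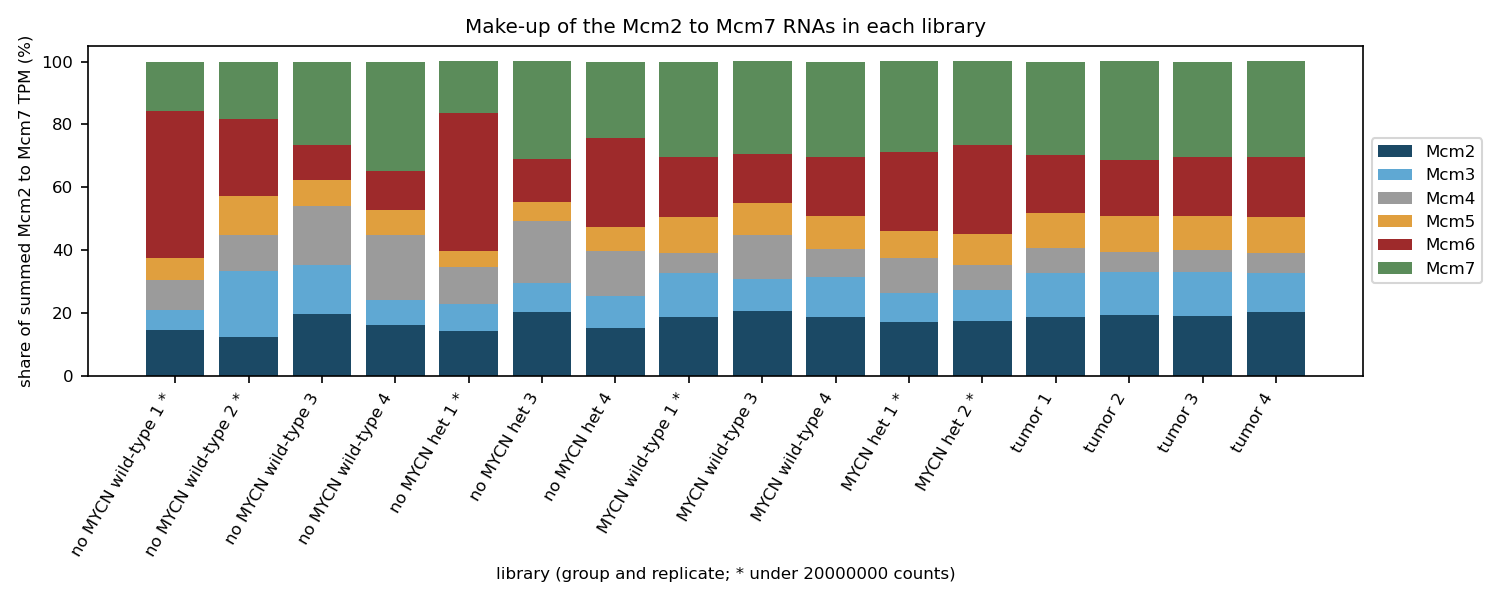
Share of each ring subunit (percent) in the summed TPM of Mcm2 to Mcm7, 1 stacked bar per library, with an asterisk at libraries under 20000000 counts. The 4 tumor bars are nearly alike, with Mcm7 between 29.7% and 31.5%, while the share of Mcm6 runs from 11.2% to 46.9% in transgene-free ganglia.

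The spread among MYCN ganglia was wide, and for all 10 genes their range overlapped that of the transgene-free ganglia. In every one of the 10 genes the wild-type replicates ranked 1, then 4, then 3. Mcm3 was at 113, 55.8 and 8.05 TPM in that order, Cdt1 at 59.6, 24.9 and 4.42 TPM, and Cdc6 at 12.5, 6.54 and 0.57 TPM. Replicate 1 thus reached the tumor range for Cdt1 and its lower edge for Cdc6, of which the lowest tumor held 12.6 TPM, while replicate 3 lay next to the transgene-free ganglia. Of the 2 MYCN ganglia labelled het, replicate 2 had the higher level of all 10 genes, with Mcm3 at 17.6 against 7.02 TPM and Cdt1 at 11.7 against 4.39 TPM. Of the 10 marker lists, 7 ranked these 3 wild-type libraries as the licensing genes did or in reverse. With 3 libraries few orders are possible, so a list can match with no relation to these genes. In wild-type replicates 1, 4 and 3 the satellite glia and Schwann cell markers summed to 457.5, 1217 and 1728.5 TPM and the sympathetic neuron markers to 6839, 11584 and 13355 TPM. Fibroblast markers summed to 537.3, 1651 and 1860 TPM in the same libraries. Endothelial markers (28.3, 77.6 and 177.0 TPM) and erythroid markers (358.6, 5059 and 6410 TPM) followed the same direction. Myeloid markers ran the other way, at 107.2, 84.4 and 46.7 TPM, as did lymphocyte markers at 9.62, 8.47 and 2.98 TPM. Hepatocyte markers, at 17.9, 303.5 and 19.6 TPM, and those of chromaffin cells and adrenal cortex followed neither direction. In het replicates 2 and 1 the glial sums were 893.7 and 1268 TPM and the neuronal ones 15020 and 16847 TPM. Their part in the licensing gene levels was not tested.

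The calls for the transgene in ganglia depended on replicate 2 of the transgene-free wild-type ganglia. With all libraries and wild-type Runx1t1, none of the 10 genes passed the test (edgeR), beside 0.936% of all genes called. The fold was above 0 for 10 of 10 and the unadjusted p was under 0.05 for 8, beside 3302 of the 16665 genes tested. The 10 genes moved together over the libraries, so these counts are not 10 separate results. The median log2 fold change was 2.05, and the lowest adjusted p was 0.0543, for Gmnn. DESeq2 called 4, beside 8.44% of all genes in its fit. Without replicate 2, 8 of the 10 were called higher, all but Mcm6 and Cdc6, beside 4.08% of all genes. Leaving out that library and MYCN wild-type replicate 1 together gave 0 calls and a median of 2.43, beside 0% of all genes. The libraries over 20000000 counts, which lack both, gave 0 calls and a median of 2.46, also beside 0%. In these fits the part of MYCN wild-type replicate 1 cannot be told apart from the loss of libraries. With only transgene-free wild-type replicate 2 left out, Mcm10 had a log2 fold change of 4.48 (SE 0.83) in place of 3.28 (SE 0.86). In that fit Mcm3 had 3.54 (SE 0.74) in place of 1.71 (SE 0.91), and Gmnn 2.04 (SE 0.43) in place of 1.80 (SE 0.41). Leaving out MYCN wild-type replicate 3, the lowest of its group, gave 5 calls, beside 10.9% of all genes. The median log2 fold change was 3.42 without replicate 2 and 1.16 without MYCN wild-type replicate 1. Shares of all genes in this and the next paragraphs count both directions unless a direction is named.

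With both Runx1t1 labels together, the 5 MYCN ganglia against the 7 transgene-free ganglia gave no call (edgeR), beside 0.0420% of all genes. The fold was above 0 for 10 of 10 genes and the unadjusted p was under 0.05 for 7, beside 1574 of the 16665 genes tested. The median log2 fold change was 1.85 and DESeq2 called 3, beside 2.39% of all genes. Without replicate 2, 6 genes were called higher (Mcm2, Mcm3, Mcm5, Mcm7, Mcm10 and Cdt1), beside 1.16% of all genes, and without MYCN wild-type replicate 3, 4 were, beside 4.33%. Leaving out transgene-free wild-type replicate 2 and MYCN wild-type replicate 1 together gave 1 call, beside 0.151%. In TPM all 5 MYCN ganglia lay above all 7 transgene-free ganglia for 0 of the 10 genes (0.528% of all genes tested), and above the 6 other than replicate 2 for 5 of the 10 (1.46% of all genes): Mcm2, Mcm5, Mcm7, Mcm10 and Cdt1. Among ganglia labelled het no gene passed the test (edgeR), beside 0% of all genes called. The median log2 fold change there was 1.23 and the fold was above 0 for 10 of 10. Mcm10 alone had an unadjusted p under 0.05, beside 242 of the 16665 genes tested, and DESeq2 called 0, beside 0.0865% of all genes. The median was 0.40 without MYCN het replicate 2, 1.81 without het replicate 1 and 0.23 with a term for depth.

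**Figure D3:**
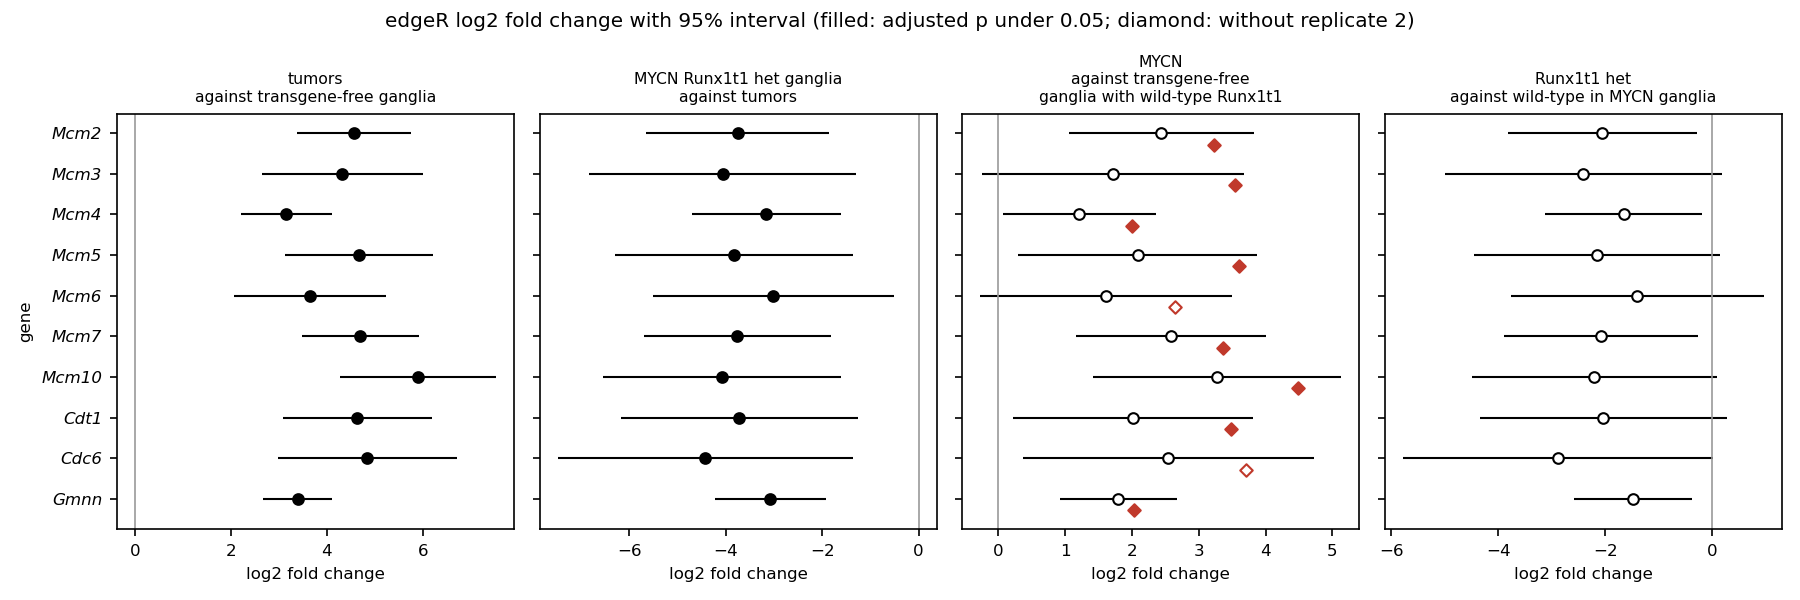
Log2 fold change of each licensing gene with its 95% interval (edgeR) in 4 comparisons. Filled points have an adjusted p under 0.05, and diamonds in the third panel give the fold without replicate 2 of the transgene-free wild-type ganglia, where 8 of 10 pass. All 10 pass in tumors against transgene-free ganglia and in MYCN ganglia labelled het against tumors, and none in het against wild-type MYCN ganglia.

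In the MYCN ganglia labelled het all 10 genes were called lower than in tumors, beside 22.0% of all genes called lower, with a median log2 fold change of −3.76. Without a filter on low counts 9 were called, since Mcm6 then had an edgeR adjusted p of 0.0511. The folds ran from −4.43 (SE 1.43, edgeR adjusted p = 0.0209) for Cdc6 to −3.02 (SE 1.17, edgeR adjusted p = 0.0481) for Mcm6. In TPM both het ganglia lay below all 4 tumors for 10 of the 10 genes, as they did for 20.4% of all genes tested. With only 2 libraries the calls rested on both: 6 genes were called without het replicate 2, beside 32.8% of all genes, and Gmnn alone, at −2.62 (SE 0.68), without het replicate 1, beside 24.8%, where the share with all libraries was 45.5%. The median log2 fold change was −4.60 without het replicate 2 and −3.26 without het replicate 1. Both het libraries were under 20000000 counts and all tumors over, so depth and group cannot be told apart by leaving libraries out. With a term for depth, which the other groups inform, 10 genes were called, beside 43.8% of all genes, and the median log2 fold change was −5.36 in place of −3.76.

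In the MYCN ganglia with wild-type Runx1t1, Gmnn was the only licensing gene called lower than in tumors, beside 14.0% of all genes called lower, with a log2 fold change of −1.60 (SE 0.42, edgeR adjusted p = 0.00973). The other 9 had folds from −1.88 for Mcm10 to −1.50 for Mcm4, nearly the same size as that of Gmnn, with SE from 0.56 to 1.01. The median log2 fold change of the 10 was −1.67, and −2.56 without MYCN wild-type replicate 1. All 3 ganglia lay below all 4 tumors for 9 of the 10 genes (8.32% of all genes tested), the exception being Cdt1, for which replicate 1 stood at 59.6 TPM and tumor replicate 1 at 55.0 TPM. The count of calls moved with the setting, beside a share of all genes that was 34.5% with all libraries. It was 5 by DESeq2 (40% of all genes), 7 without MYCN wild-type replicate 1 (40.6%) and 7 without transgene-free wild-type replicate 2 (40.4%), which enters through the shared estimate of the spread. It was 9 among the libraries over 20000000 counts (43.1%).

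The study asked what loss of 1 Runx1t1 allele does in these mice. In MYCN ganglia all 10 licensing genes had a lower fitted level with the het label, with a median log2 fold change of −2.07, but none passed the test (edgeR), beside 0.0120% of all genes. The unadjusted p was under 0.05 for 4 of them, beside 2094 of the 16665 genes tested. Gmnn had a log2 fold change of −1.48 (SE 0.51, 95% interval −2.58 to −0.38, edgeR adjusted p = 0.327), Mcm7 −2.08 (SE 0.84, 95% interval −3.89 to −0.27) and Mcm2 −2.05 (SE 0.82, 95% interval −3.82 to −0.29). The groups overlapped in all 10 genes: the wild-type replicates lay all above both het ganglia for 0 of the 10, beside 10.6% of all genes tested, because wild-type replicate 3 lay below het replicate 2 each time. DESeq2 called 0 of the 10, beside 1.74% of all genes. Every fit that left out a library called 0 too, beside at most 1.92% of all genes, the share without wild-type replicate 3. Without wild-type replicate 1 the median log2 fold change was −1.15, and without het replicate 2 it was −2.91.

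In ganglia without the transgene, the het label against wild-type gave no call (edgeR), beside 0% of all genes. No licensing gene had an unadjusted p under 0.05, beside 687 of the 16665 genes tested, and DESeq2 called 0, beside 0.0104%. The median log2 fold change of −1.20 rested on wild-type replicate 2, without which it was −0.10. Gmnn, the gene in which that library stood closest to the others, had a log2 fold change of −0.01 (SE 0.41) with all libraries. The interaction of transgene and Runx1t1 label gave no call either, beside 0% of all genes, with a median of −0.73. That median was 0.06 without MYCN wild-type replicate 1 and −1.88 without transgene-free wild-type replicate 2. It was −2.54 with a replicate block and −2.0 with a term for depth. Gmnn had the lowest unadjusted p of the 10 there, at a log2 difference of −1.47 (SE 0.65, edgeR adjusted p = 0.845), and DESeq2 called 0 of the 10, beside 0.166%. These comparisons share groups, so their folds are not independent of each other.

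The other lists of the replication pathway had different medians in tumors against transgene-free ganglia. Beside every count of calls below stand 30.6% of all genes tested that were called higher, and 61.4% called in either direction, with all libraries. The median log2 fold change over all genes was −0.06. Without transgene-free wild-type replicate 2 the list medians given below ran from 0.66 to 5.62, and 2 of the list genes that had not passed the test did so, Pole4 (higher) and Rbl2 (lower). Of the genes named below by the largest fold, 8 moved by over 1.5 times without it: the log2 fold change was then 4.74 for Orc1, 6.25 for Ticrr, 6.63 for Dtl, 5.62 for Cdc20, 6.06 for Clspn, 5.34 for E2f8, 6.87 for Ccnb1 and 6.33 for Rrm2. Of the 7 genes of the origin recognition complex list, 6 were called higher, but their median log2 fold change was 1.23, against 4.61 for the licensing genes. Orc1, the largest subunit of the complex, had the largest fold, 3.90 (SE 0.96, edgeR adjusted p = 0.00286), at 4.74 TPM in tumors on average. Orc6 followed at 1.91 (SE 0.23) and Lrwd1, which steadies the complex on chromatin, at 1.48 (SE 0.23). Orc4 did not pass the test, at a log2 fold change of 0.16 (SE 0.16) on the scale of normalized counts, although its mean TPM was 19.6 in transgene-free wild-type ganglia and 16.6 in tumors.

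Of the helicase activation genes, which turn the loaded ring into a moving helicase, 13 of 13 were called higher, beside 30.6% of all genes. Their median was 3.57. Ticrr, which brings Cdc45 to the ring, had a log2 fold change of 5.53 (SE 0.86), Cdc45 itself 4.81 (SE 0.57) and Recql4 4.55 (SE 0.65). Of 5 other MCM family genes and partners, 5 were called higher, with a median of 1.89. Mcm8, which acts in recombination, rose by 3.78 (SE 0.45) and Mcmbp, a partner of the MCM proteins, by 1.89 (SE 0.29), both on the log2 scale. Mcmdc2 had a log2 fold change of 2.08 (SE 0.85, edgeR adjusted p = 0.047) and stayed under 1 TPM on average in every group.

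Among the geminin relatives and the genes that destroy Cdt1, 8 of 9 tested were called higher, beside 30.6% of all genes, and 1 lower. Their median was 0.66. The relatives Gmnc and Mcidas, known from multiciliated cells, were not tested, since neither exceeded 0.25 TPM in any library. Dtl, the substrate receptor that marks Cdt1 for destruction in S phase, rose by 5.80 on the log2 scale (SE 0.90, edgeR adjusted p = 7.80e-05), to 34.0 TPM in tumors on average. In the transgene-free ganglia other than wild-type replicate 2 it was at 0.485 ± 0.234 TPM (SD, n = 6). Cdc20, an activator of the ligase that removes geminin in mitosis, rose by 5.01 (SE 0.74) and Skp2, which marks Cdt1 by another route, by 3.48 (SE 0.35). The gene that fell was Skp1a, a ligase subunit with many other substrates, by 0.46 on the log2 scale (SE 0.12), and it is named after its value was seen.

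At the replication fork, 24 of 26 genes were called higher, beside 30.6% of all genes, and 1 lower, with a median of 2.82. Clspn, a checkpoint mediator at the fork, had a log2 fold change of 5.40 (SE 0.80), Rfc4 of the clamp loader 4.24 (SE 0.47) and Pole, the leading strand polymerase, 4.08 (SE 0.64), whereas Pole4 did not pass the test with all libraries (edgeR adjusted p = 0.0591). The gene that fell was Pold4, the small subunit of polymerase delta, by 2.41 (SE 0.36), again named after its value was seen. Of 13 E2F and pocket protein genes, 9 were called higher and 4 were not called. E2f8 had a log2 fold change of 4.68 (SE 0.73), E2f7 4.13 (SE 0.54) and E2f1 3.43 (SE 0.47). Rb1, the retinoblastoma gene, and its relative Rbl2 did not pass the test with all libraries. Their log2 fold changes, on the scale of normalized counts, were −0.28 (SE 0.19) and −0.45 (SE 0.19). In mean TPM they stood at 22.2 and 22.0 in the transgene-free ganglia other than wild-type replicate 2 and at 13.8 and 13.2 in tumors. The others not called, named after their values were seen, were E2f5 and Tfdp2. All 9 proliferation markers were called higher, with a median of 5.02, led by Ccnb1 at 6.26 (SE 0.75), Cdk1 at 5.48 (SE 0.65) and Rrm2 at 5.43 (SE 0.83).

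**Figure D4:**
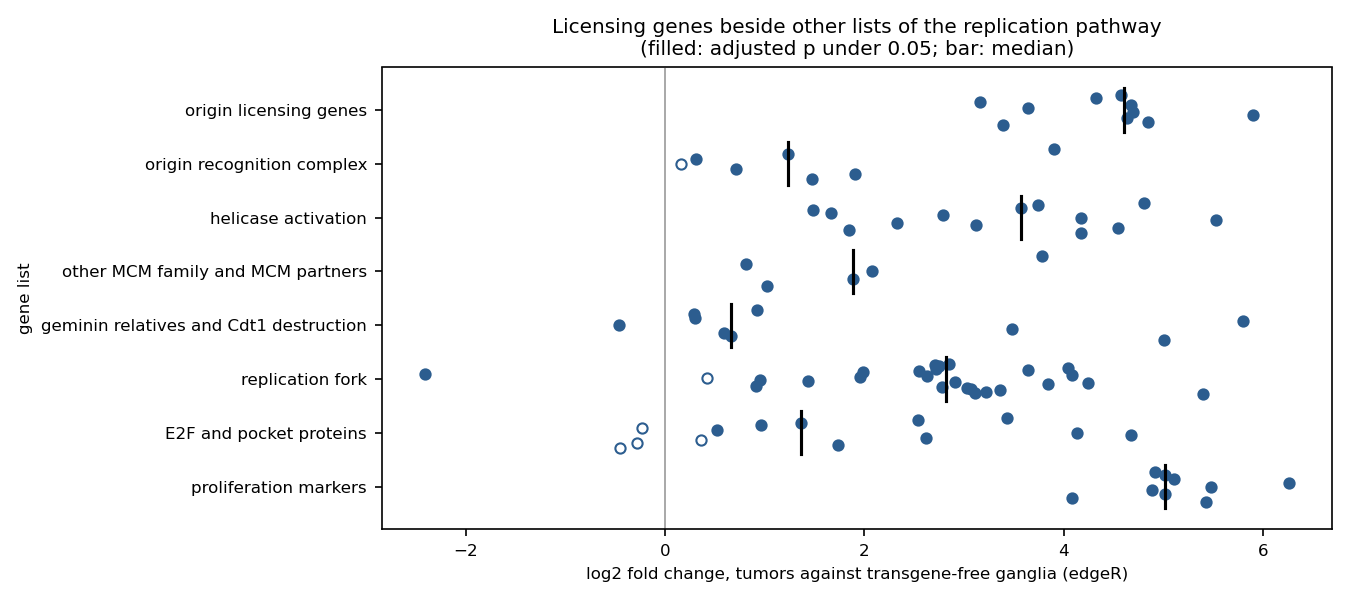
Log2 fold change (edgeR) in tumors against transgene-free ganglia for the 10 licensing genes and 7 other gene lists, 1 point per gene, filled where the adjusted p was under 0.05, with a bar at the list's median. The licensing genes sit between 3.16 and 5.90, with a median of 4.61, and the origin recognition complex has a median of 1.23.

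The same lists in MYCN ganglia with wild-type Runx1t1 against transgene-free ganglia gave few calls with all libraries: 1 of 13 helicase activation genes (Cdc7, a kinase that fires origins, at a log2 fold change of 1.98 with SE 0.36), 1 of 26 fork genes (Timeless, at 1.93 with SE 0.40) and 0 of 9 proliferation markers, all 9 of which had an unadjusted p under 0.05. Cdc7 and Timeless are named after their values were seen. Their median log2 fold changes were 1.98, 1.21 and 2.65, beside 2.05 for the licensing genes and 0.18 for the origin recognition complex. Without transgene-free wild-type replicate 2, 9 of 13 helicase activation genes, 14 of 26 fork genes and 9 of 9 proliferation markers were called higher. Their medians were 2.07, 1.61 and 3.77, beside 3.42 for the licensing genes and 0.37 for the origin recognition complex, of which 0 of 7 were called. Of all genes 4.08% were called in that fit, against 0.936% with all libraries, where 3302 of 16665 had an unadjusted p under 0.05. With MYCN wild-type replicate 1 also left out, 0% of all genes were called, so none of these calls remained.

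Over the 16 libraries, the 5 genes whose log2 CPM (counts scaled to the library's total) were most like the mean scaled level of the licensing genes were Ncaph (Pearson r = 0.996), Nek2 (0.996), Racgap1 (0.995), Lmnb1 (0.995) and Ndc80 (0.995). Ncaph is a condensin subunit, Nek2 a centrosome kinase, Racgap1 acts in cytokinesis, Lmnb1 encodes lamin B1 and Ndc80 belongs to the kinetochore. The libraries fall into groups with very different levels, so these correlations describe that order and carry no p. The members' own r ran from 0.947 for Mcm6 to 0.998 for Mcm2. Each member is itself part of that mean, which raises its r, while the 5 genes above are not.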

How the data were processed

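The 16 libraries were grouped by their labels, in which Hom for Runx1t1 was read as homozygous wild type, and no column was left unmapped. The authors made stranded total RNA libraries (the labels say polyA RNA) and used STAR and the mm10 build. They deposited expected counts per gene, estimated by RSEM and not normalized. The authors also deposited TPM, which RSEM scales to the same sum in each library. Whether counting used the strand, and the annotation release, are not given in the sources used here, and RSEM shares out reads between near copies. Expected counts were rounded. In R 4.3.3, edgeR 4.0.16 dropped weakly counted genes with its filter that knows the groups, scaled by TMM and fitted all 5 groups with the quasi-likelihood model, so that the group of 2 shares the estimate of the spread. There were 9 comparisons, adjusted by Benjamini-Hochberg over 16665 genes with a threshold of 0.05. SE is the log2 fold change divided by the root of F. Levels per library and their SD are TPM.

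The 10 genes, the 7 pathway lists and the 10 marker lists were chosen with earlier results of these data known. From each pathway list the text names at most 3 called genes with the largest fold in tumors and 2 not called with the highest TPM, and the 5 genes most like the members' mean scaled log2 CPM (prior count 2), with exceptions said where they stand. Alternatives were upper-quartile scaling, DESeq2 1.42.0, no filter or 10 counts in every library, only the groups compared, a replicate block, a term for depth, limma 3.58.1 on log2(TPM + 1) or log2(TPM + 0.1), the ring subunits alone and leaving out each library. Fits on libraries over or under 20000000 counts, and without both transgene-free wild-type replicate 2 and MYCN wild-type replicate 1, were chosen after seeing the data. Replicate numbers were taken to pair 2 groups where each of at least 3 same-numbered pairs correlated over 0.1 in deviations from group means. This was so for transgene-free wild-type ganglia and tumors (0.148 to 0.319 in 4 pairs), though the labels give no source for a pairing. Precision was limited by 2 to 4 libraries per group and by depth, from 10692299 to 38618757 counts.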

Additional observations from a re-analysis of the deposited data

Results flagged for a closer look

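Among the 4 wild-type ganglia that lack the transgene, replicate 2 lay far above the other 3 for 7 licensing genes. The gap to the next library took 0.872 of the group's whole range for Mcm2, 0.905 for Mcm3, 0.841 for Mcm4, 0.967 for Mcm5, 0.856 for Mcm7, 0.941 for Mcm10 and 0.991 for Cdt1, each above Dixon's 95% critical value for 4 samples. In Mcm6, Cdc6 and Gmnn it was also the highest, without passing that value. No tumor stood apart in any of the 10 genes. Chance flags about 1 in 20 such groups, and 20 were examined, 10 genes in each of 2 groups, which are not independent since the genes share their libraries. The same library held 662.1 summed TPM of lymphocyte markers, against at most 9.62 in any other ganglion, and the part of those cells was not tested.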

How the results depend on the processing

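All 10 licensing genes were called higher in tumors than in transgene-free ganglia under every alternative but a filter of 10 counts in every library. Under that filter Mcm10 and Cdc6 were not tested and the other 8 were called. Of all genes 69% were called in either direction under it, against 61.4% in the fit used above and 51.4% without a filter. The median log2 fold change of the licensing genes ran from 4.13 to 5.17. In MYCN wild-type ganglia against tumors the 1 call, beside 34.5% of all genes called in either direction, became 2 with upper-quartile scaling (35.5% of all genes) or with 10 counts in every library (42.1%), 5 with DESeq2 (40%) or limma on log2(TPM + 0.1) (42.3%) and 7 with limma on log2(TPM + 1) (41.7%). It became 9 with a term for depth (38.5%), 9 among libraries over 20000000 counts (43.1%) and 9 without both transgene-free wild-type replicate 2 and MYCN wild-type replicate 1 (46.9%). With 1 library left out it ran from 1 to 7. It was 7 without transgene-free wild-type replicate 2 (40.4%) or without MYCN wild-type replicate 1 (40.6%), and 2 without transgene-free wild-type replicate 1 (35.1%). In MYCN ganglia labelled het against tumors no filter gave 9 calls (36.5% of all genes) and 10 counts in every library 8 of the 8 tested (55%). Leaving out a het library left a lone sample, assumed to vary like the other groups. The median log2 fold change was then −4.60 without het replicate 2 and −3.26 without het replicate 1. For all MYCN against all transgene-free ganglia the count was 3 with DESeq2 (2.39% of all genes), 1 without both libraries (0.151%) and 0 to 6 with 1 left out. With wild-type Runx1t1 it was 1 with upper-quartile scaling (1.43% of all genes), 1 without a filter (0.996%), 1 with 10 counts in every library (1.78%), 3 with a term for depth (1.85%), 4 with DESeq2 (8.44%), 0 to 8 with 1 left out and 0 without both libraries. For the interaction the median log2 difference, with 1 library left out, ran from −1.88 without transgene-free wild-type replicate 2 to 0.06 without MYCN wild-type replicate 1, where it changed sign. No other median changed sign. The term for depth moved 5 medians by over 1.5 times: to −2.43 and −5.36 in MYCN wild-type and het ganglia against tumors, 0.23 in MYCN against transgene-free ganglia labelled het, −2.71 in het against wild-type MYCN ganglia and −2.0 in the interaction. In het against wild-type without MYCN limma gave −0.54 and −0.57, libraries over 20000000 counts −0.09 and those under it −2.13, in place of −1.20. In het against wild-type MYCN ganglia limma on log2(TPM + 1) gave −1.46 and libraries under 20000000 counts −3.10, in place of −2.07. In MYCN wild-type ganglia against tumors libraries over 20000000 counts gave −2.52. The cause of these shifts was not tested, beyond the loss of samples or genes that the alternatives bring.

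A replicate block changed no count of calls, with 10 calls in tumors against transgene-free ganglia (59.8% of all genes), 1 in MYCN wild-type ganglia against tumors (30.2%) and 10 in MYCN ganglia labelled het against tumors (45.5%), but it moved 6 medians by over 1.5 times. These went from 1.23 to 0.06 in MYCN against transgene-free ganglia labelled het, from 2.05 to 2.84 with wild-type Runx1t1, from −3.76 to −4.59 in MYCN ganglia labelled het against tumors, from −2.07 to −2.96 and from −1.20 to −0.49 in het against wild-type with and without MYCN, and from −0.73 to −2.54 in the interaction. Across the 10 pairs of groups the numbers met the criterion for pairing in transgene-free wild-type ganglia and tumors alone, where the block left 10 calls. Over all 25 pairs of libraries that share a number the correlation of deviations from group means had a median of −0.01 and was over 0.1 in 7. Fits over 20000000 counts gave no value for comparisons with the MYCN ganglia labelled het, and fits under it none with tumors. At these depths Cdc6 rests on as few as 2 counts in a transgene-free ganglion.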

Other observations

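Among the 5 MYCN ganglia the licensing genes, Mki67 and Runx1t1 lay in nearly the same order. From wild-type replicate 1 through wild-type replicate 4, het replicate 2, wild-type replicate 3 and het replicate 1, Mcm2 was at 147, 82.9, 31.1, 16.4 and 12.8 TPM, Mki67, the proliferation marker, at 347, 150, 66.6, 18.9 and 13.8 TPM, and Runx1t1 at 70.3, 37.4, 16.9, 7.90 and 8.83 TPM. With 5 libraries of 2 labels no correlation is given.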
